A study of Mus musculus with 21 samples.

Results

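The genes described here are 10 genes of cellular iron uptake, storage, export and control, taken by symbol from 2 tables of gene counts that each hold the same 21872 genes. They are Trf, Tfrc, Slc11a2, Slc25a37, Fth1, Ftl1, Ncoa4, Slc40a1, Aco1 and Ireb2, and all 10 had a row in both tables and passed the filter on low counts at both ages. The tables come from a study of copper in mouse brain development, in which mice given water were compared with mice given trientine (TETA), a drug that binds copper and is used to lower body copper. The labels call the TETA group copper-deficient, and the dose, the route and the length of treatment were not given in the sources used here. The 21 libraries, all labelled as mouse brain, fall into 4 groups: 6 of water-treated controls and 6 of TETA at embryonic day 18.5 (E18.5), and 5 controls and 4 TETA at 7 weeks after birth. The labels name no strain, allele or transgene. The extraction protocol, the same text on every library, describes prefrontal cortex of male mice at 7 weeks, so region and sex at E18.5 were taken as not stated. The labels do not say whether each library came from a separate animal, so a p-value measures the spread between libraries, which may be partly technical.

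Total counts per library were 14668965 to 24292715 at E18.5, after the division of some counts by 11 that is described with the processing, and 17838051 to 24035857 in the 7-week table. Markers of cortical excitatory neurons (7 genes) were above 0 in every library at both ages, as were the 6 general neuron markers. At E18.5 both libraries numbered 1-2 stood apart. Their lowest chi-square per gene to another library of the group was 5.57 in control and 5.96 in TETA. It was 2.30 to 4.04 for the other 10. Control 1-1 was at 0 for 1940 genes whose counts in the other E18.5 libraries were multiples of 11. None of them was a member. A difference between the groups at 7 weeks touches every TETA result at that age. The summed level of 10 genes that mark the striatum, a region beneath the cortex, ran from 748 to 946 CPM (counts relative to the scaled library total) in control and from 290.4 to 407 in TETA, and all 10 were called lower, with a median log2 change of -1.37. At E18.5 the same sum was 438 to 511 in control and 449 to 478 in TETA. In bulk tissue, fewer cells of a type and less RNA of a gene per cell cannot be told apart.

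Iron circulates bound to transferrin, which Trf encodes, and enters cells when transferrin binds its receptor, the product of Tfrc, and is taken into endosomes. Slc11a2 (DMT1) moves ferrous iron out of the endosome, Slc25a37 (mitoferrin 1) carries iron into mitochondria, and ferritin, a shell of heavy (Fth1) and light (Ftl1) chains, stores what is not used. Ncoa4 delivers ferritin to lysosomes for breakdown, and Slc40a1 (ferroportin) is the cellular iron exporter, which works with the copper-containing ferroxidases ceruloplasmin and hephaestin. In brain, oligodendrocytes are a main site of Trf expression, and the endothelium of brain vessels carries the transferrin receptor.

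Aco1 and Ireb2 encode the iron regulatory proteins IRP1 and IRP2, which bind a hairpin in messenger RNA called the iron-responsive element when iron is scarce. Binding in a 5′ untranslated region (UTR) blocks translation, and binding in the 3′ UTR of Tfrc protects the messenger RNA from decay. Aco1 is also cytosolic aconitase when its protein holds an iron-sulphur cluster. The hairpin matters for reading count data, because in the textbook account the 3′ elements act on messenger RNA levels and the 5′ elements mainly on translation, which RNA counts do not measure.

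The sequences below are those of the hairpins found in the UTRs of these genes, shown because they mark which members IRP1 and IRP2 are known to act on. The search used transcripts of GENCODE vM21, which is on the mm10 (GRCm38) build that the submitters' processing notes name. It looked on the transcript strand for C, 5 bases, the loop CAGTGN, and 5 bases that pair with the first 5, allowing G-T pairs and at most 1 unpaired base in the 3′ arm. Of 21901 coding genes, 438 (2.00%) held such a hairpin in a UTR, and 5 of the 10 members did, with 8 hairpins between them. Each is printed 5′ to 3′ with the loop in capitals.
Fth1, 5′ UTR, exon 1, chr19:9982732-9982761, plus strand: ttcctgcttcaaCAGTGCttgaacggaacc
Ftl1, 5′ UTR, exon 1, chr7:45459778-45459807, minus strand: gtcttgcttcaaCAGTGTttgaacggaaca
Slc40a1, 5′ UTR, exon 1, chr1:45925464-45925493, minus strand: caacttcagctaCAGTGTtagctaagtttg
Slc11a2, 3′ UTR, exon 16, chr15:100395152-100395181, minus strand, 1 unpaired base: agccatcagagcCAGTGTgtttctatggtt
Tfrc, 3′ UTR, exon 19, chr16:32631219-32631248, plus strand: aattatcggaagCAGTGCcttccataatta
Tfrc, 3′ UTR, exon 19, chr16:32631598-32631627, plus strand: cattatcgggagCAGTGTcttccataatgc
Tfrc, 3′ UTR, exon 19, chr16:32631663-32631692, plus strand: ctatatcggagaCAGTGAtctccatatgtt
Tfrc, 3′ UTR, exon 19, chr16:32631710-32631739, plus strand: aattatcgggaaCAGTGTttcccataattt

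All 4 Tfrc hairpins lay within exon 19 of 1 of its 3 coding transcripts, and the ferritin chains carried theirs in the first exon, in 4 of 5 coding transcripts of Fth1 and 1 of 2 of Ftl1. For Slc40a1 the hairpin was in 1 of 4 coding transcripts and for Slc11a2 in 1 of 6. Counts per gene do not separate transcripts with the hairpin from those without. Trf, Slc25a37, Ncoa4, Aco1 and Ireb2 had no match to this pattern in a UTR, which says only that these letters were not there.

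At 7 weeks, TETA libraries had less messenger RNA of the transferrin receptor Tfrc and of Aco1, and more of the mitochondrial iron carrier Slc25a37, than control libraries. Slc25a37 was 1.195-fold of control, Aco1 0.879-fold and Tfrc 0.860-fold. These were 3 of the 10 members, and 9.96% of all 14240 genes tested at 7 weeks were called by edgeR's quasi-likelihood test at an adjusted p under 0.05 (5.67% higher and 4.28% lower). With library totals in place of TMM scaling, the split over all genes moved from 808 higher and 610 lower to 1003 and 480. The median log2 change was -0.04 over the members and 0.00019 over all genes tested. Over the members, 2 had groups that did not overlap, against 11.2% of all genes.

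Among the uptake genes, Tfrc (chromosome 16) measured 179.8, 203, 237, 205 and 186 CPM in control replicates 1 to 5. In TETA replicates 1 to 4 it measured 181, 163, 173 and 172 CPM. Control replicate 3 was the highest of all and control replicate 1 lay just under TETA replicate 1, so the groups overlapped at that point alone. The log2 change was -0.22 (SE 0.058, 95% interval of the fold 0.792 to 0.935, adjusted p = 0.0195, edgeR's quasi-likelihood test). The adjusted p was 0.0760 with DESeq2 and 0.0653 in edgeR without TETA replicate 2. Without control replicate 3 the edgeR log2 change was -0.16, with an adjusted p of 0.0346.

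Trf (chromosome 9), the transferrin gene, measured 217, 243, 251, 228 and 276 CPM in control and 247, 228, 224 and 221 CPM in TETA. The TETA values lay inside the control range, and the log2 change was -0.07 (SE 0.053, adjusted p = 0.479, edgeR's quasi-likelihood test). With each library left out in turn it ran from -0.11 to -0.017, and none of these passed the threshold. The summed level of 12 oligodendrocyte markers was 7227 to 8559 CPM in control and 6451 to 7567 CPM in TETA at this age, with 1 of the 12 called higher and none lower. The endosomal carrier Slc11a2 averaged 59.3 ± 2.48 CPM over the controls against 59.2 ± 2.39 CPM with TETA (SD, n = 5 and 4). Its log2 change of 0.01 had a 95% interval from -0.08 to 0.10.

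Slc25a37 (chr14:69241848-69285112, minus strand) measured 38.0, 37.2, 35.6, 38.4 and 37.5 CPM in control replicates 1 to 5. It measured 43.4, 41.9, 45.8 and 46.1 CPM in TETA replicates 1 to 4, so every TETA library was above every control library. The means were 37.3 ± 1.08 and 44.3 ± 2.01 CPM (SD, n = 5 and 4). The log2 change was 0.26 (SE 0.045, 95% interval of the fold 1.12 to 1.27, adjusted p = 0.000843, edgeR's quasi-likelihood test). Leaving out each library in turn gave log2 changes from 0.24 to 0.28, each past the threshold.

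The ferritin chains and Ncoa4 did not pass the test at 7 weeks. Fth1, the heavy chain with the ferroxidase site, averaged 1909 ± 81.8 CPM over the controls against 1892 ± 84.4 CPM with TETA (SD, n = 5 and 4), and the 95% interval of its log2 change was -0.07 to 0.07. Ftl1, the light chain, measured 228, 242, 223, 226 and 235 CPM in control and 228, 218, 209 and 205 CPM in TETA. The 3 lowest Ftl1 values were TETA libraries while TETA replicate 1 lay among the controls. Its log2 change was -0.09 (unadjusted p = 0.0224, adjusted p = 0.129, edgeR's quasi-likelihood test).

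Ftl1 is uncertain for another reason: 78.9% of the 50-base words of its main transcript also occur in transcripts of 15 other genes, 8 of them pseudogenes, and how reads that fit several places were counted is not given in the sources used here. Ncoa4, the ferritin receptor for lysosomal breakdown, had 48.1 ± 1.73 and 47.4 ± 2.202 CPM (SD, n = 5 and 4). It shares 43.1% of such words with the pseudogene Gm6768. The exporter Slc40a1 was low at 11.03 ± 0.912 and 10.2 ± 0.649 CPM (SD, n = 5 and 4), with a log2 change of -0.09 and a wide 95% interval from -0.26 to 0.08.

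Of the iron regulatory genes, Aco1 (chr4:40143081-40198338, plus strand) fell and Ireb2 did not pass the test. Aco1 measured 37.3, 38.2, 39.3, 40.0 and 39.1 CPM in control and 32.6, 32.9, 34.7 and 34.9 CPM in TETA. The highest TETA library was below the lowest control library. The log2 change was -0.19 (SE 0.045, 95% interval of the fold 0.823 to 0.938, adjusted p = 0.0109, edgeR's quasi-likelihood test), and leaving out each library gave -0.20 to -0.17 with adjusted p up to 0.0405.

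Ireb2 (chromosome 9), which encodes IRP2, averaged 71.1 ± 2.77 CPM over the 7-week controls against 70.5 ± 2.73 CPM with TETA (SD, n = 5 and 4). The 95% interval of its log2 change, -0.09 to 0.08, lay above the estimate for Aco1.

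**Figure D1:**
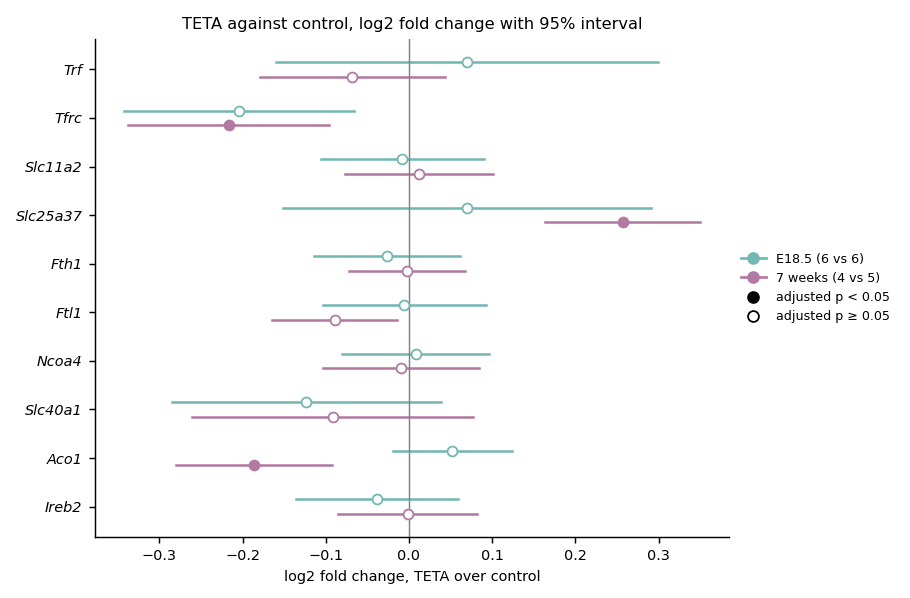
Log2 fold change of TETA over control for each iron gene (x axis) at E18.5 (6 against 6 libraries) and at 7 weeks (4 against 5), with 95% intervals from edgeR; filled points have an adjusted p under 0.05. Slc25a37 at 0.26, Aco1 at -0.19 and Tfrc at -0.22 are filled at 7 weeks, and no point is filled at E18.5.

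Entering the striatum marker score as a covariate at 7 weeks left 0 genes called by edgeR of 14240 (687 at an unadjusted p under 0.05), and none of the members. The log2 changes then were 0.03 for Slc25a37 (unadjusted p = 0.848), -0.36 for Aco1 (unadjusted p = 0.0561) and -0.07 for Tfrc (unadjusted p = 0.755). The adjusted p was 0.998 for each of them (edgeR's quasi-likelihood test). The summed striatum markers did not overlap between the groups, so striatum RNA and TETA cannot be told apart in these libraries. Astrocyte markers (6 genes) moved in the same direction, from a summed 4928 to 5580 CPM in control to 4450 to 4833 CPM in TETA, with 2 of 6 called lower, and their part in the results was not tested.

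Sums of the other marker lists overlapped between the groups at 7 weeks. Endothelial markers (8 genes) summed to 255 to 281 CPM in control and 264 to 297 in TETA, with 1 of 8 called higher, and 9 erythroid markers to 35.2 to 52.9 and 31.8 to 51.2 CPM, with Epb42 at 0 in every TETA library. Microglial markers (8 genes) summed to 384 to 422 CPM in control and 383 to 414 in TETA. Choroid plexus markers (10 genes) summed to 4.37 to 7.65 CPM in 8 of the 9 libraries and to 66.2 in control replicate 4, with 1 of 6 tested called lower. With the oligodendrocyte or the choroid plexus score as a covariate, the 3 members stayed past the threshold. For Tfrc the adjusted p was 0.0355 with the oligodendrocyte score and 0.0482 with the choroid plexus score (edgeR's quasi-likelihood test).

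**Figure D2:**
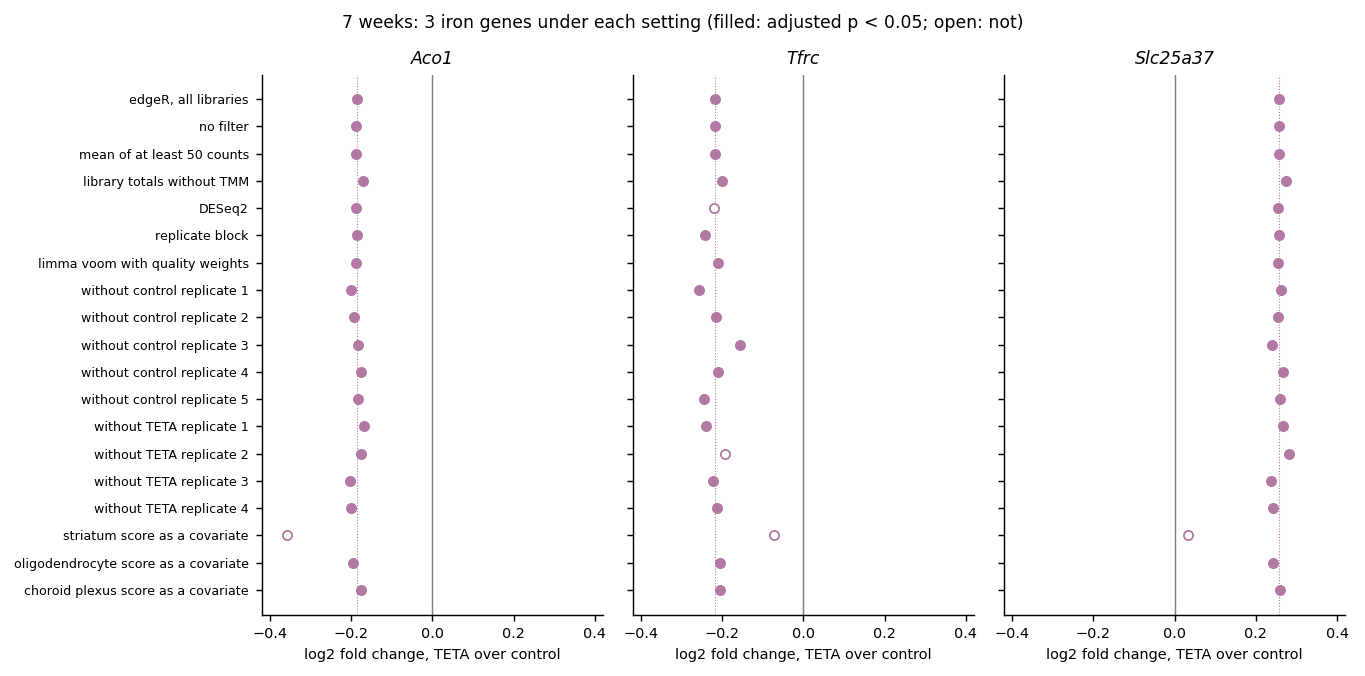
Log2 fold change of TETA over control at 7 weeks (x axis) for Aco1, Tfrc and Slc25a37 under each fit run (rows), with filled points where the adjusted p is under 0.05 and a dotted line at the estimate from edgeR with all libraries. The points of Slc25a37 lie between 0.24 and 0.28 except at 0.03 with the striatum score, and Tfrc is open with DESeq2, without TETA replicate 2 and with the striatum score.

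At E18.5 no member passed the test, and neither did any of the 13794 genes tested (0.00% by edgeR's quasi-likelihood test, with 660 genes or 4.78% at an unadjusted p under 0.05). DESeq2 called 10 genes at this age, none of them a member. All 10 members had groups that overlapped, against 0.319% of all genes whose groups did not. Tfrc alone of the members had an unadjusted p under 0.05, with a log2 change of -0.20 (SE 0.066, 95% interval -0.34 to -0.07, unadjusted p = 0.00568, adjusted p = 0.801, edgeR's quasi-likelihood test).

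The Tfrc values at E18.5 ran from 64.2 through a median of 80.1 to 88.6 CPM in control and from 63.4 through 66.5 to 70.5 CPM in TETA. The replicate numbers in the labels have 2 parts, whose meaning is not stated. The 4 control libraries whose number begins with 1 or 2 lay between 77.0 and 88.6 CPM, above every TETA library, while the pair numbered 3 lay at 65.3 and 64.2 CPM, inside the TETA range. Without control 1-1 and both libraries numbered 1-2 the log2 change was -0.13 (unadjusted p = 0.0462, adjusted p = 0.665, edgeR's quasi-likelihood test). Endothelial markers summed to 134 to 149.9 CPM in control and 148 to 156 in TETA at this age, and erythroid markers, another place of high Tfrc expression, to 127 to 258 and 118 to 224 CPM. Their part in the Tfrc values was not tested.

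For the other 9 members at E18.5, the log2 changes ran from -0.12 for Slc40a1 to 0.07 for Slc25a37. The intervals were narrow for the more abundant genes, from -0.11 to 0.06 for Fth1 and from -0.02 to 0.12 for Aco1. They were wide for the low genes Trf (-0.16 to 0.30) and Slc25a37 (-0.15 to 0.29), which had 74 to 145 and 118 to 200 counts per library. Mean levels were 82.6 ± 2.92 and 85.7 ± 2.096 CPM for Aco1 and 194 ± 17.0 and 189 ± 5.83 CPM for Ireb2 in control and TETA (SD, n = 6 and 6).

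The difference of the TETA effect between the ages was tested directly in a fit of all 21 libraries. It called 454 of 14660 genes (3.1%) by edgeR's quasi-likelihood test, and 1 of the 10 members. That member was Aco1, whose log2 change was 0.05 at E18.5 and -0.19 at 7 weeks, a difference of -0.25 (SE 0.053, adjusted p = 0.00589). It stayed past the threshold under all other fits run for this difference, with a highest adjusted p of 0.0210, in edgeR without TETA replicate 1 at 7 weeks. Over all genes, the split of 245 higher and 209 lower calls became 413 and 161 with library totals in place of TMM.

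For Tfrc the difference between the ages was -0.03 with a 95% interval from -0.23 to 0.18 (adjusted p = 0.943, edgeR's quasi-likelihood test). Its log2 changes of -0.20 and -0.22 at the 2 ages were thus of like size, but the interval spans differences as large as the changes themselves. For Slc25a37 the difference was 0.17, with an interval from -0.07 to 0.41 (adjusted p = 0.519, edgeR), so its increase at 7 weeks was not shown to differ from the 0.07 measured at E18.5.

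Between the ages the members differed far more than with TETA. In control mice, Trf, Slc25a37, Fth1, Tfrc and Slc11a2 were higher at 7 weeks than at E18.5, and Ftl1, Ireb2, Aco1 and Slc40a1 were lower. These were 9 of 10 members past the threshold of edgeR's quasi-likelihood test, where 89.3% of 14660 genes were (44.0% higher and 45.3% lower). The groups did not overlap for 8 members, against 79.5% of all genes. Age, the table in which the counts were deposited and possibly region and sex go together here and cannot be told apart. All levels are on 1 scale, TMM over both tables. With library totals instead, the median log2 change of all genes moved from -0.02 to -0.17 in control and from -0.01 to -0.13 in TETA, and the 9 members kept their directions.

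Trf rose most, from 5.84 ± 0.960 CPM at E18.5 to 243 ± 22.8 CPM at 7 weeks in control (SD, n = 6 and 5), a fold of 41.8 (95% interval 37.4 to 46.6). In TETA it rose from 6.16 ± 0.931 to 229.9 ± 11.5 CPM (SD, n = 6 and 4), a fold of 37.7. Oligodendrocyte markers summed to 64.8 to 76.3 CPM at E18.5, with Opalin at 0 in all 12 libraries, and to 6451 to 8559 CPM at 7 weeks. Their part in the Trf levels was not tested. Trf shares 79.8% of its 50-base words with the overlapping gene Gm20425, which has no row in the tables.

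Tfrc rose 2.62-fold in control, from 77.2 ± 10.4 to 202 ± 22.2 CPM (SD, n = 6 and 5), and Slc11a2 rose 1.59-fold, from 37.1 ± 2.49 to 59.3 ± 2.48 CPM. Slc25a37 rose 4.79-fold in control (7.87 ± 1.42 to 37.3 ± 1.08 CPM) and 5.401-fold in TETA (8.17 ± 1.01 to 44.3 ± 2.01 CPM). Each of these 3 uptake genes had no overlap between the ages in either treatment group.

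The ferritin chains moved in opposite directions. Fth1 rose 4.43-fold in control, from 431 ± 28.2 to 1909 ± 81.8 CPM, and Ftl1 was 0.246-fold, from 937 ± 40.4 to 231 ± 7.38 CPM (SD, n = 6 and 5). The ratio of Fth1 counts to Ftl1 counts within a library therefore went from a median of 0.456 (0.441 to 0.489) at E18.5 to 8.33 (7.76 to 8.76) at 7 weeks in control. In TETA it went from 0.449 (0.434 to 0.503) to 8.78 (8.68 to 8.93). A ratio within a library does not depend on scaling between libraries, but it does depend on how reads shared with Ftl1 pseudogenes were counted. At 7 weeks 3 of the 4 TETA ratios lay above every control ratio and the other lay between control replicates 4 and 5, so the groups overlapped.

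Ncoa4 was the only member not past the threshold between the ages. It had 50.3 ± 3.22 CPM at E18.5 and 48.1 ± 1.73 CPM at 7 weeks in control (log2 change -0.06, adjusted p = 0.154, edgeR's quasi-likelihood test). In TETA the change was -0.09 (adjusted p = 0.0550). It passed with library totals (-0.21 in control and -0.20 in TETA), without the E18.5 control library 1-2 (adjusted p = 0.0454) and without 7-week TETA replicate 3 (adjusted p = 0.0278). Slc40a1 fell to 0.833-fold in control (13.1 ± 1.52 to 11.03 ± 0.912 CPM, adjusted p = 0.00267, edgeR) with groups that overlapped.

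Both regulators fell with age. Aco1 was 0.470-fold in control (82.6 ± 2.92 to 38.8 ± 1.03 CPM) and 0.395-fold in TETA (85.7 ± 2.096 to 33.8 ± 1.18 CPM), and Ireb2 was 0.367-fold and 0.374-fold. Their groups did not overlap between the ages. In TETA mice the same 9 members passed, against 88.1% of all genes (43.6% higher and 44.5% lower), and 8 members had no overlap between the ages, against 80.3%. The larger change of Aco1 in TETA is the same measurement as the difference of the TETA effect given above, not a second result.

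**Figure D3:**
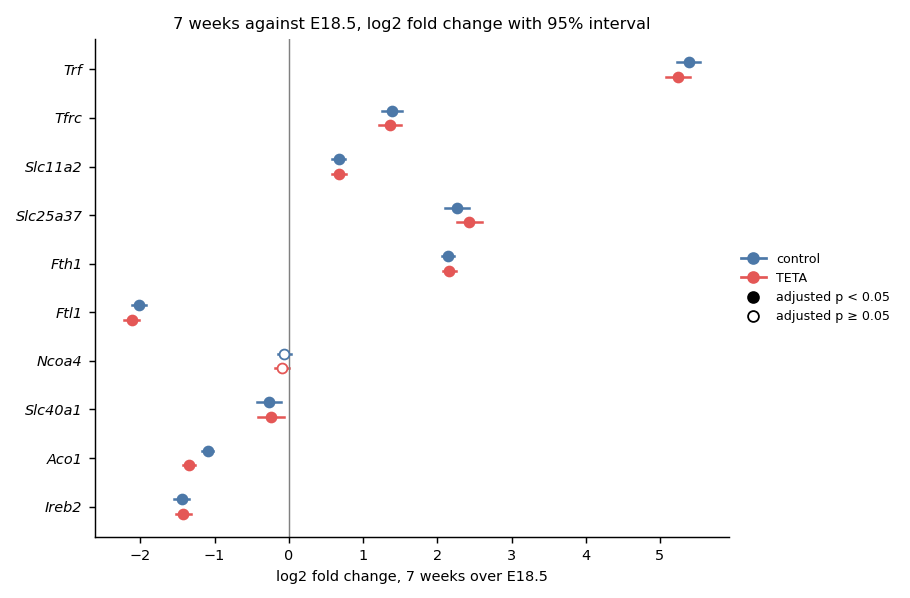
Log2 fold change of 7 weeks over E18.5 for each iron gene (x axis) in control and in TETA libraries, with 95% intervals from edgeR; filled points have an adjusted p under 0.05. Trf lies at 5.38 and 5.24, the ferritin chains lie on opposite sides of 0 at 2.15 and -2.02 in control, and Ncoa4 is open in both groups.

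Per kilobase of exon (GENCODE vM21 basic annotation), which lets different genes be compared, Ftl1 was the most abundant member in E18.5 control at 968 ± 41.7 CPM per kb, followed by Fth1 at 277 ± 18.1, Ireb2 at 33.6 ± 2.95 and Aco1 at 21.6 ± 0.762 (SD, n = 6). Below these came Tfrc, Ncoa4, Slc11a2, Slc40a1, Trf and Slc25a37, and Tfrc and Ncoa4, and Trf and Slc25a37, overlapped. At 7 weeks the control order began with Fth1 at 1225 ± 52.5 CPM per kb, Ftl1 at 238 ± 7.63, Trf at 88.3 ± 8.28 and Tfrc at 38.9 ± 4.28 (SD, n = 5). The places of Ftl1, Ncoa4 and Trf depend on how reads from sequence they share with other genes were counted, which is not known here.

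Ireb2, Ncoa4, Slc11a2, Aco1 and Slc25a37 then lay between 12.3 and 8.95 CPM per kb, where Ireb2 overlapped Ncoa4 and Slc11a2 overlapped Aco1. Slc40a1 was last at 3.27 ± 0.271. With the exons of the full annotation the first 5 genes at E18.5 and the first 4 at 7 weeks kept their order, and later places changed. Ireb2 and Aco1 then overlapped in E18.5 control. In TETA at 7 weeks, Slc25a37 stood above Aco1, at 10.6 ± 0.481 against 8.82 ± 0.309 CPM per kb with the basic annotation (SD, n = 4), and with the full annotation the order turned, at 7.35 ± 0.334 for Slc25a37 against 7.52 ± 0.263 for Aco1, a gap within the SD.

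**Figure D4:**
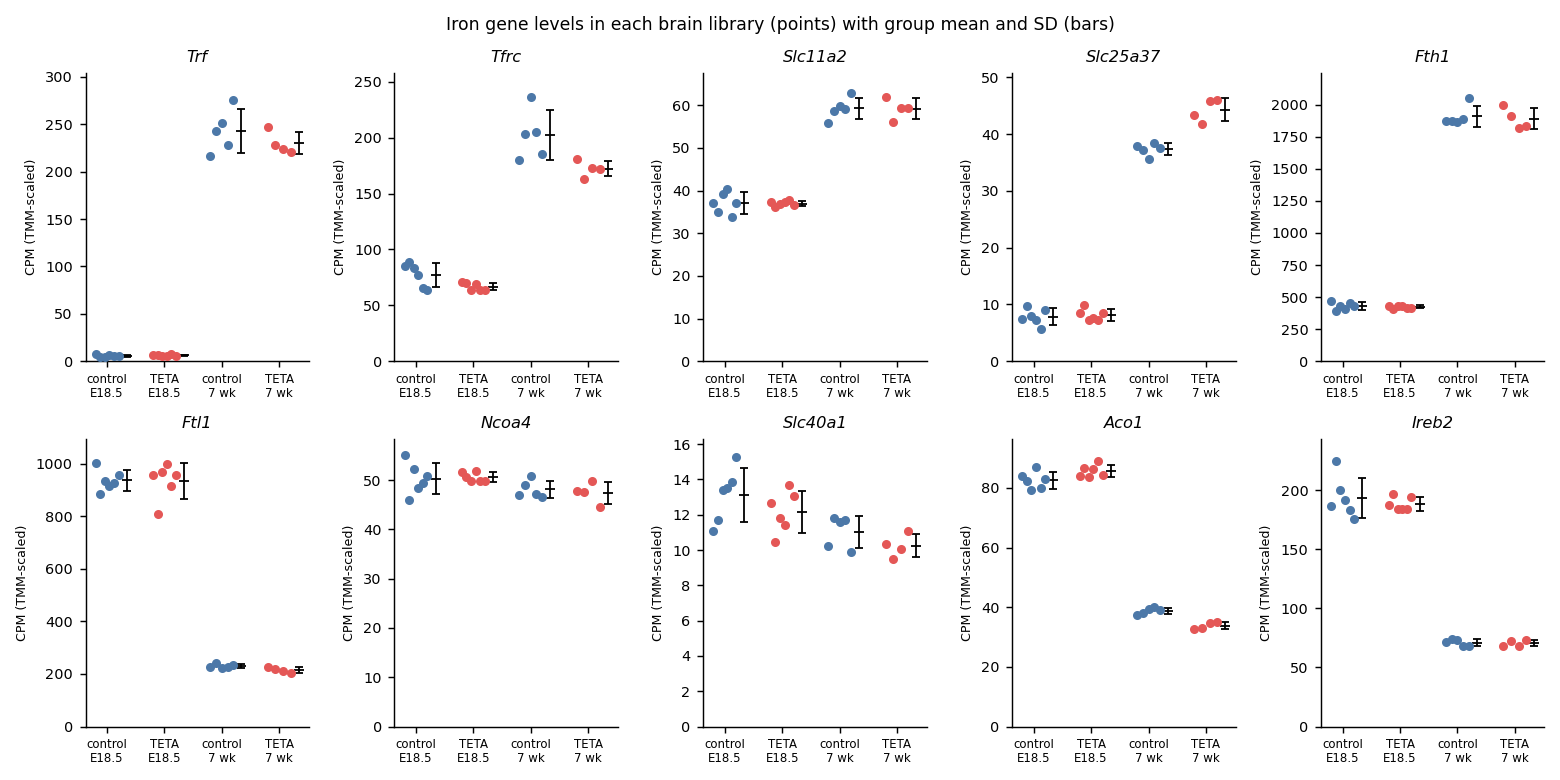
Level of each iron gene (y axis, TMM-scaled CPM, from 0) in every library, as points for control and TETA at E18.5 and at 7 weeks, with group mean and SD as bars. Trf has group means of 5.84 and 6.16 CPM at E18.5 and of 243 and 229.9 CPM at 7 weeks, Ftl1 and Fth1 change in opposite directions, and the TETA points lie above control for Slc25a37 and below it for Aco1 at 7 weeks.

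The spread between libraries of a group differed between members. The coefficient of variation in 7-week control ran from 2.66% for Aco1 to 10.99% for Tfrc, where counting error alone would give 3.55% and 1.56%. In E18.5 control Slc25a37 varied by 18.1% and Trf by 16.5%, with counting error of 7.91% and 9.15%, and Tfrc, at a higher level, by 13.5% with counting error of 2.52%.

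A wider list of 79 other iron genes was read beside the members. At 7 weeks 70 were tested, with 1 called higher and 4 called lower in TETA by edgeR's quasi-likelihood test, where 5.67% of all genes were called higher and 4.28% lower. The median log2 change was -0.01, against 0.00019 over all genes. Flvcr1, which encodes a heme exporter of the cell surface, rose from 13.4 ± 1.02 to 15.7 ± 0.642 CPM (SD, n = 5 and 4, log2 change 0.25, adjusted p = 0.0225, edgeR). The heme list as a whole had 1 of 20 higher and none lower.

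Those that fell were spread over 3 roles. In the iron-sulphur and mitochondrial list, 2 of 15 fell. Among them Hspa9, a mitochondrial chaperone that takes part in iron-sulphur cluster transfer, went from 239 ± 5.50 to 218 ± 7.84 CPM (adjusted p = 0.0180, edgeR).

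Bmpr1a, a receptor of the bone morphogenetic protein pathway that controls hepcidin in liver, fell from 65.1 ± 2.75 to 57.7 ± 1.55 CPM (log2 change -0.17, adjusted p = 0.0115, edgeR), as 1 of 8 in its list. Herc2, a ubiquitin ligase linked to Ncoa4 turnover, fell from 483 ± 10.4 to 449.7 ± 6.05 CPM (log2 change -0.09, adjusted p = 0.0385, edgeR), as 1 of 7 storage and trafficking genes. None of the 8 uptake and reduction genes, the 10 iron-dependent and hypoxia-linked genes or the ferroxidases Cp and Heph passed. In the test of the difference between ages 0 of 70 passed by edgeR's quasi-likelihood test, with 15 at an unadjusted p under 0.05. Of all 14660 genes, 3.1% passed and 2335 had an unadjusted p that low.

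At E18.5, 67 of these genes were tested and 0 passed by edgeR, with 3 at an unadjusted p under 0.05. Between the ages in control, 43 of 70 rose and 21 fell, where 44.0% of all genes rose and 45.3% fell. Ceruloplasmin (Cp), the copper-containing ferroxidase, rose 11.6-fold, from 1.08 ± 0.156 to 12.5 ± 1.08 CPM, and Hfe, a partner of the transferrin receptors, rose 5.99-fold, from 0.737 ± 0.202 to 4.41 ± 0.652 CPM (SD, n = 6 and 5). Tmprss6, a protease of the hepcidin pathway, had 58 counts over the 7-week controls and 1 over the E18.5 controls. The CPM ratio was 69.9, with an exact 95% counting interval from 12.1 to 2808. The E18.5 counts of Tmprss6 were among those divided as described with the processing. Its ratio and interval depend on that division, and the ratio would be lower with undivided counts.

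The largest decreases were in Cybrd1, a ferric reductase, from 16.3 ± 1.15 to 2.86 ± 0.548 CPM (log2 change -2.50), in Alas2, the heme synthesis enzyme of red cells (-1.83), and in Slc39a8, a metal carrier (-1.66). Alas2 is itself one of the erythroid markers, whose sum was 127 to 258 CPM in E18.5 control and 35.2 to 52.9 CPM in 7-week control.

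Within groups, the genes whose log2 levels followed Tfrc most closely over the 21 libraries, after each group's mean was removed, were Abracl (Pearson r = 0.81, Spearman rho 0.77), Zfp68 (0.79 and 0.75) and Memo1 (0.77 and 0.69), out of 13434 genes compared. For Trf they were Gpn1 (0.76 and 0.77), Cplx3 (0.73 and 0.70) and Plxnb3 (0.71 and 0.68). Without the 2 libraries farthest from the median, r was 0.69 to 0.75 for the Tfrc set and 0.57 to 0.70 for the Trf set. These values are the highest of many, and none of the 6 is a member. The genes of a library share its depth and any difference in dissection.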

How the data were processed

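RNA was sequenced from mouse brain in 21 libraries of 4 groups, prepared as stranded poly(A) libraries (TruSeq) per the labels' protocols. The authors deposited whole-number read counts per gene symbol in 2 tables, 1 for each age. STAR 2.7.1a, featureCounts 2.0.1 and the mm10 build are named in the submitters' processing notes, with no settings; the annotation, the use of strand and the handling of multi-mapped reads are not given in the sources used here. All columns matched 1 library each.

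In the E18.5 table, 1940 genes at 0 in control 1-1 had counts that were multiples of 11 in all other libraries, and these counts were divided by 11; no member was among them. No pair of replicates agreed within counting noise (lowest chi-square per gene 2.30).

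Each age was tested with edgeR 4.0.16 (R 4.3.3; filterByExpr minimum count 10, TMM, quasi-likelihood test, Benjamini-Hochberg adjustment over all genes tested, threshold 0.05). A fit of all 21 libraries gave the age contrasts, the difference of the TETA effect and all levels printed (TMM-scaled CPM, mean ± SD). The SE is the size of the log2 change divided by the square root of F. Hairpins, exon lengths and shared 50-base words came from GENCODE vM21.

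The members, the gene lists and the tests were chosen with earlier results of these data known. Besides the members, the genes named are the other iron genes past the threshold with TETA (at most 8), the 3 largest changes up and down with age, and the 3 genes most like Trf and Tfrc. One gene that this rule names is not reported here. The alternative settings tried were: all genes kept, only genes with a mean of 50 or more counts, no TMM, DESeq2 1.42.0, limma 3.58.1 voom with quality weights, a replicate block, each library left out, undivided and summed E18.5 counts, and striatum and oligodendrocyte scores. A choroid plexus score, a set of 3 libraries left out together and median-ratio scaling were added after seeing the data.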

Additional observations from a re-analysis of the deposited data

Results flagged for a closer look

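Aco1 differed between the ages in its response to TETA: the difference of the log2 changes (7 weeks minus E18.5) was -0.25, past the adjusted threshold of edgeR's quasi-likelihood test of that difference. Levels were 82.6 ± 2.92 CPM in control and 85.7 ± 2.096 CPM in TETA at E18.5 (SD, n = 6 and 6), and 38.8 ± 1.03 and 33.8 ± 1.18 CPM at 7 weeks (SD, n = 5 and 4). The striatum marker sum differed between the treatment groups at 7 weeks and not at E18.5, and its part in the difference was not tested.

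Fth1 in 7-week control replicate 5 was 2055 CPM, with the other 4 control libraries between 1862 and 1884 CPM. Its gap to the nearest library was 0.88 of the group's range, above Dixon's critical value of 0.71 for 5 samples. This was 1 of 40 groups examined over the 10 genes, where chance gives about 1 in 20. Without that library the log2 change of Fth1 with TETA was 0.03, not past the threshold.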

How the results depend on the processing

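Of the single-gene values recomputed under other settings, 925 kept their direction and their side of the threshold, 56 changed sign, 4 newly passed and 5 no longer passed. No sign change was in a value past the threshold. At E18.5 the genes called numbered 0 in edgeR, 10 with DESeq2, 8 with limma voom and quality weights, 2 with libraries of the same first number summed, 3 without 3 libraries together, and 0 to 7 when each was left out (7 without TETA 1-2, 3 without control 3-2); no member was called in any of these. At 7 weeks 927 (without TETA replicate 3) to 1392 genes and 2 to 3 members were called with 1 library left out, against 1418 and 3, and 0 genes and 0 members with the striatum score. The difference between ages gave 290 (without 7-week TETA replicate 3) to 622 genes with 1 library left out, against 454, and always 1 member, Aco1.

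Sign changes at E18.5 were Ftl1 at 0.010 (voom), 0.00032 (summed) and 0.040 (3 libraries out), Slc11a2 at 0.00034 and Ncoa4 at -0.00013 (voom). At 7 weeks they were Fth1 at 0.014 (no TMM), 0.025 (replicate block), 0.0051 (voom), 0.061 (striatum score) and 0.012 (oligodendrocyte score); Ireb2 at 0.014 (no TMM), 0.066 (striatum) and 0.0022 (oligodendrocyte); Ncoa4 at 0.0070 (no TMM); and Slc11a2 at -0.11 (striatum). In the difference between ages, Tfrc was 0.010 and Ncoa4 0.0066 without TMM. With each library left out, log2 changes at E18.5 ran from -0.027 to 0.032 for Ftl1, -0.035 to 0.018 for Slc11a2, -0.064 to 0.0090 for Ireb2, -0.012 to 0.035 for Ncoa4 and -0.011 to 0.13 for Slc25a37. At 7 weeks they ran from -0.030 to 0.026 for Fth1, -0.011 to 0.036 for Slc11a2, -0.018 to 0.016 for Ireb2 and -0.037 to 0.023 for Ncoa4. In the difference they ran from -0.066 to 0.037 for Tfrc, -0.016 to 0.041 for Fth1, -0.026 to 0.062 for Slc40a1, -0.018 to 0.036 for Slc11a2 and -0.020 to 0.052 for Ireb2.

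A replicate block on the numbers that control and TETA share called 0 genes at E18.5 (719 at an unadjusted p under 0.05 in edgeR) and 1063 at 7 weeks, with the same 3 members past the threshold. Libraries with the same number did not consistently deviate together. The correlations of such pairs ran from -0.28 to 0.28 in the E18.5 table, with a mean of 0.019. In the 7-week table they ran from -0.07 to -0.03. Of the controls, 2 of 6 at E18.5 and 0 of 4 at 7 weeks correlated best with their own number. At E18.5 counting error alone was 9.15% for Trf, 7.91% for Slc25a37 and 6.04% for Slc40a1 in control, less than the spread between libraries.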
